A study of Homo sapiens with 9 samples.

Results

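GDF15, INHBE, ADM2, STC2, ANGPTL4 and FGF21 encode secreted hormones or hormone-like factors that cells can release under stress. These 6 genes were taken by name from the 58735 genes counted in each library. They were chosen because their counts differed between these libraries, so their values are given below as a description and without a test. RNA was sequenced from MDA-MB-231, an established mesenchymal-like line of triple-negative breast cancer. The 3 groups were vehicle cells given DMSO, erastin-R cells that survived rising concentrations of erastin, and RSL3-R cells that survived rising concentrations of RSL3, with 3 libraries in each. Erastin blocks the cystine importer xCT and RSL3 inhibits the lipid peroxidase GPX4, and both start ferroptosis, an iron-dependent death by lipid peroxidation. All groups were of the same line with no genetic change named in the labels, and the labels give neither the drug schedule nor whether libraries of a group came from separate cultures, so that p-values measure only the spread between libraries, which may be technical.

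GDF15 is a distant member of the TGF-beta family that signals through GFRAL and RET in the hindbrain and lowers food intake. INHBE encodes the subunit of activin E and is mainly known from liver, where FGF21, a fasting hormone that acts through FGF receptors and beta-klotho, is also made. Several of these genes are known targets of the integrated stress response, in which kinases of eIF2-alpha raise translation of the transcription factor ATF4. ANGPTL4, an inhibitor of lipoprotein lipase, is best known as a target of the PPAR receptors and of hypoxia.

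Total counts were between 15405102 and 17273464 per library, and 16188 genes passed the filter on low counts. Counts were scaled by the TMM method and are given as CPM, counts scaled to a common library size, on which 3 counts were worth 0.175 to 0.193 CPM. VIM (1347 to 1475 CPM as group means) and CD44 (234 to 314 CPM) were high in all groups, while ESR1 and PGR had at most 12 and 2 counts in any library. CDH1 was at 1.14, 0.751 and 3.44 CPM in vehicle, erastin-R and RSL3-R cells, and EPCAM at 2.15, 1.32 and 1.65 CPM. Erastin-R replicate 1 stood apart from replicates 2 and 3 on the 3rd principal component, at -35.7 against 14.4 and 13.0. In bulk RNA, a change in the number of cells that make a transcript and a change in the amount per cell cannot be told apart.

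The promoters are shown for GDF15, the member with the most counts in both treated groups, for ANGPTL4, which moved the other way, and for FGF21, which was counted only in RSL3-R cells. Each run holds the 250 bases before the RefSeq start on GRCh38.p14, 5′ to 3′ on the strand of the gene, and capitals mark the letters of the motifs found. The runs lie at chr19:18385908-18386157 (+) for GDF15, chr19:8363905-8364154 (+) for ANGPTL4 and chr19:48755274-48755523 (+) for FGF21.
GDF15: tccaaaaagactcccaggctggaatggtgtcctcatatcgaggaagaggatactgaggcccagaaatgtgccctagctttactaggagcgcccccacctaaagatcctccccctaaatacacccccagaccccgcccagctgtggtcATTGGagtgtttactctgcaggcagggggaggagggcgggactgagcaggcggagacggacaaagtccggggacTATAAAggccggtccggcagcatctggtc
ANGPTL4: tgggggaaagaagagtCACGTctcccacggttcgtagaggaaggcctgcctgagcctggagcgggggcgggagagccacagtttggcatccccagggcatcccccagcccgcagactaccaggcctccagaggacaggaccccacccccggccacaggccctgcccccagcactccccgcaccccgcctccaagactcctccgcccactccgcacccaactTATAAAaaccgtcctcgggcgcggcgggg
FGF21: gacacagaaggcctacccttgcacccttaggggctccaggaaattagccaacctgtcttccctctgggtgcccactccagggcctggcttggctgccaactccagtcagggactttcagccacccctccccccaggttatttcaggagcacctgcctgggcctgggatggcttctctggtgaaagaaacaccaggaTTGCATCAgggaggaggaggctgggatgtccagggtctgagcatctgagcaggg

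The promoters of 5 of the 6 genes were matched in RefSeq, and INHBE was not among them. 5 motifs were searched on both strands. For these genes the windows searched were 300 bases long, the 250 bases before the start and the 50 after it. TGATGNAA, the letters of the element bound by ATF4 with C/EBP proteins, was present in 1 of the 5 promoters, that of FGF21, where the printed run holds its reverse complement, TTGCATCA, from 54 bases before the start. These letters occurred in 3.617% of all 35116 promoter windows searched. ACGTG, a form of the core of the hypoxia response element, was found on the reverse strand in ANGPTL4, from 234 bases before the start, and in 21.409% of all windows. The form GCGTG was not searched. TATAAA was found in GDF15 and ANGPTL4, in both from 29 bases before the start, and in 11.53% of all windows. CCAAT was found on the reverse strand in GDF15, from 103 bases before the start, and in STC2, from 100 bases before it, and in 34.614% of all windows. The endoplasmic reticulum stress element (ERSE), which begins with the letters CCAAT, was in none of the 5 promoters and in 0.077% of all windows. The promoter of ADM2 held none of the 5 motifs. A match describes letters in this window only, and says nothing about a factor being bound there.

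GDF15 (ENSG00000130513; GRCh38, chromosome 19, 18374731 to 18389176, plus strand) was counted over 2087 bases of exon. It had 158, 161 and 168 counts in the vehicle libraries, 1160, 1616 and 1640 in the erastin-R libraries and 2415, 2681 and 2800 in the RSL3-R libraries. All erastin-R libraries were above all vehicle libraries, and all RSL3-R libraries were above both. The level averaged 9.91 ± 0.473 CPM with vehicle, 90.5 ± 18.6 after erastin and 162.0 ± 5.65 after RSL3 (mean ± SD, n = 3 libraries each). On the log2 scale the fold change relative to vehicle came to 3.19 (SE 0.14) for erastin-R and 4.03 (SE 0.14) for RSL3-R, and the step from erastin-R to RSL3-R to 0.84 (SE 0.11). The spread was widest in erastin-R cells, where replicate 1 was at 69.1 CPM and the others at 99.7 and 102.8 CPM. Without erastin-R replicate 1, the log2 fold changes were 3.35 against vehicle and 0.68 for RSL3-R against erastin-R cells. The microRNA gene MIR3189 lies within the span of GDF15 and shares 0 exon bases with it.

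INHBE (ENSG00000139269; chromosome 12, 57452323 to 57459280, plus strand) was near the detection limit in vehicle cells, with 1, 3 and 3 counts. The erastin-R libraries had 31, 22 and 23 counts and the RSL3-R libraries 102, 94 and 111. The 3 groups did not overlap and followed the same order as for GDF15. INHBE passed the filter only through the treated libraries. Mean levels were 0.143 ± 0.0725 CPM for vehicle, which lies below the floor of 3 counts, 1.55 ± 0.258 CPM for erastin-R and 6.30 ± 0.401 CPM for RSL3-R. Summed over libraries and scaled, the ratio to vehicle was 10.9 in erastin-R cells (exact 95% interval 5.04 to 28.04) and 44.3 in RSL3-R cells (21.2 to 111.1). These intervals cover counting error only. With the vehicle libraries set at the floor of 3 counts each, the ratios were 8.46 and 34.4. The fitted log2 fold changes were 3.38 (SE 0.38) and 5.39 (SE 0.31), and they rest on 7 vehicle counts in all. After quantile normalization of log2 CPM, with a prior count of 3 added before the log, they were 2.36 and 4.16. With that prior count and no quantile step, the mean differences from vehicle were 2.42 and 4.33. The step to quantiles thus made up the smaller part of the drop. Without vehicle replicate 1 the fitted values were 3.01 and 5.03. The comparison of RSL3-R with erastin-R cells does not rest on the vehicle counts, and its log2 fold change was 2.02 (SE 0.21).

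ADM2 (ENSG00000128165; chromosome 22, 50481556 to 50486440, plus strand) encodes adrenomedullin 2, also named intermedin, a vasodilator peptide of the calcitonin family. It had 62, 49 and 45 counts in vehicle, 249, 254 and 258 in erastin-R and 446, 513 and 531 in RSL3-R libraries. These groups did not overlap either, and the erastin-R libraries were close to each other. The level was 3.17 ± 0.476, 15.6 ± 0.674 and 30.6 ± 1.62 CPM. Against vehicle, ADM2 differed on the log2 scale by 2.29 (SE 0.13) for erastin-R and 3.27 (SE 0.12) for RSL3-R, which was 0.97 (SE 0.10) above erastin-R. Of the 50-base words in its transcripts, 0.821% also occurred in another gene, which bears on how uniquely reads could be assigned.

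STC2 (ENSG00000113739; chromosome 5, 173314713 to 173329503, minus strand) encodes stanniocalcin 2, a secreted glycoprotein known to inhibit the protease PAPP-A. Vehicle libraries had 25, 33 and 42 counts, erastin-R libraries 44, 53 and 40, and RSL3-R libraries 123, 123 and 118. Only the RSL3-R libraries stood apart, since the vehicle and erastin-R libraries overlapped at 1.49 to 2.59 and 2.43 to 3.37 CPM. The mean level was 2.04 ± 0.550, 2.81 ± 0.497 and 7.49 ± 0.534 CPM for vehicle, erastin-R and RSL3-R. Its log2 fold changes were 0.46 (SE 0.23) for erastin-R over vehicle, 1.87 (SE 0.20) for RSL3-R over vehicle and 1.41 (SE 0.20) for RSL3-R over erastin-R.

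FGF21 (ENSG00000105550; chromosome 19, 48755559 to 48758333, plus strand) had 0 counts in all vehicle and all erastin-R libraries and 6, 14 and 14 counts in the RSL3-R libraries. It did not pass the filter and was not fitted. A count of 0 allows a level of up to 0.179 to 0.185 CPM in a vehicle library and 0.179 to 0.191 CPM in an erastin-R library. The RSL3-R libraries were at 0.387, 0.870 and 0.818 CPM, a pooled level of 0.698 CPM (exact 95% interval 0.483 to 0.975). Set against a floor of 3 counts per library, the mean RSL3-R level of FGF21 was at least 3.78-fold higher than that of vehicle cells and at least 3.76-fold higher than that of erastin-R cells. These bounds leave out the counting error of the RSL3-R libraries themselves. Between erastin-R and vehicle cells no difference was detectable at this depth, and no fold is given.

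ANGPTL4 (ENSG00000167772; chromosome 19, 8363289 to 8374373, plus strand) moved in the opposite direction. It had 679, 641 and 670 counts in vehicle, 202, 233 and 324 in erastin-R and 293, 318 and 328 in RSL3-R libraries. Every treated library was below every vehicle library, while the erastin-R and RSL3-R libraries overlapped. Mean levels were 40.5 ± 0.870 CPM for vehicle, 15.5 ± 3.88 CPM for erastin-R and 19.3 ± 0.446 CPM for RSL3-R. On the log2 scale the treated groups differed from vehicle by -1.38 (SE 0.13) and -1.07 (SE 0.13), and from each other by 0.31 (SE 0.14). Erastin-R replicate 1, which had the lowest GDF15 of its group, also had the lowest ANGPTL4 at 12.03 CPM and the highest INHBE at 1.85 CPM, and its part in these values was not tested. Without it, the erastin-R value of ANGPTL4 relative to vehicle was -1.23 on the log2 scale. ANGPTL4 shares 1 exon base with the antisense gene RAB11B-AS1, which had 7 to 28 counts.

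**Figure D1:**
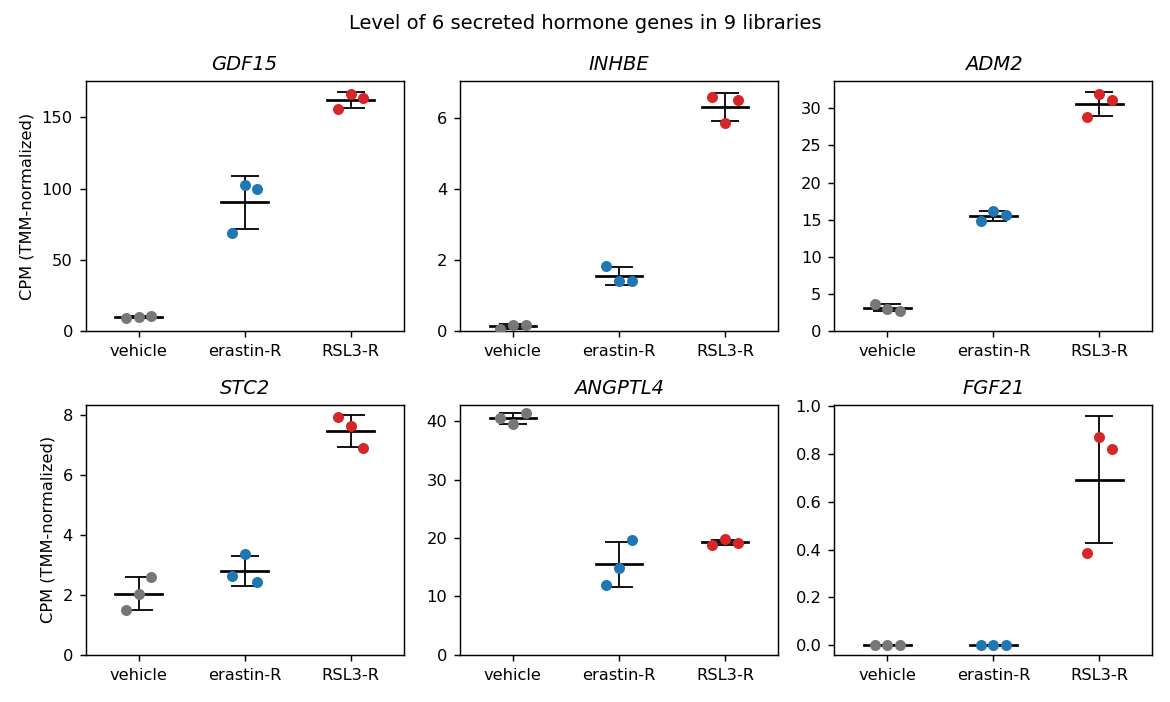
TMM-normalized CPM (linear axis from 0, a scale of its own for each gene) of the 6 genes by group. Points are libraries, long bars the mean and short bars 1 SD (n = 3). In GDF15, INHBE and ADM2 the groups stand in the order vehicle, erastin-R, RSL3-R with no overlap, STC2 separates the RSL3-R libraries, ANGPTL4 is highest in vehicle cells, and FGF21 is above 0 in RSL3-R cells.

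Across the 6 genes, the RSL3-R and vehicle libraries did not overlap in any, and those of erastin-R and vehicle cells did not overlap in 4. Those of RSL3-R and erastin-R cells did not overlap in 5, all with RSL3-R higher. Of all 16188 genes tested, 61.9%, 57.9% and 55.2% had libraries that did not overlap in these comparisons (30.4%, 28.7% and 25.6% with the group named first higher). The genes were chosen from the same values, so nothing is read from these counts. Both comparisons use the same vehicle libraries.

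**Figure D2:**
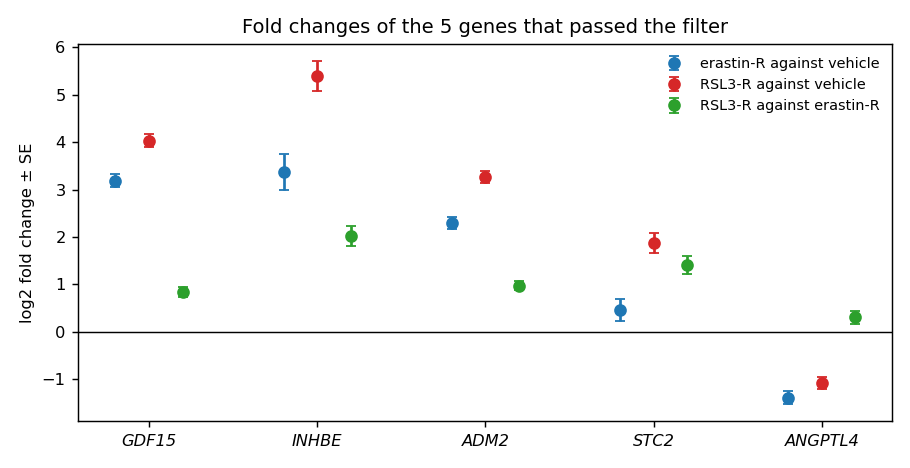
Fitted log2 fold changes ± SE of the 5 genes that passed the filter, for erastin-R against vehicle, RSL3-R against vehicle and RSL3-R against erastin-R. INHBE has the widest error bars against vehicle (SE 0.38 and 0.31), and ANGPTL4 lies below 0 in both comparisons with vehicle at -1.38 and -1.07.

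Levels were compared between genes after division by exon length, as CPM per kilobase. In vehicle cells the order was ANGPTL4 (16.3), GDF15 (4.75), ADM2 (0.740), STC2 (0.333) and INHBE (0.0475), with FGF21 at 0. In erastin-R cells GDF15 led at 43.4 CPM per kilobase, followed by ANGPTL4 at 6.25 and ADM2 at 3.64. INHBE and STC2 did not separate there, with libraries at 0.464 to 0.612 and 0.397 to 0.550 CPM per kilobase. GDF15 led by a wider margin in RSL3-R cells, at 77.6 CPM per kilobase. ANGPTL4 (7.77) and ADM2 (7.15) were next, and INHBE (2.09), STC2 (1.22) and FGF21 (0.526) followed. The ANGPTL4 and ADM2 libraries, at 7.61 to 7.96 and 6.72 to 7.46 CPM per kilobase, did not overlap.

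**Figure D3:**
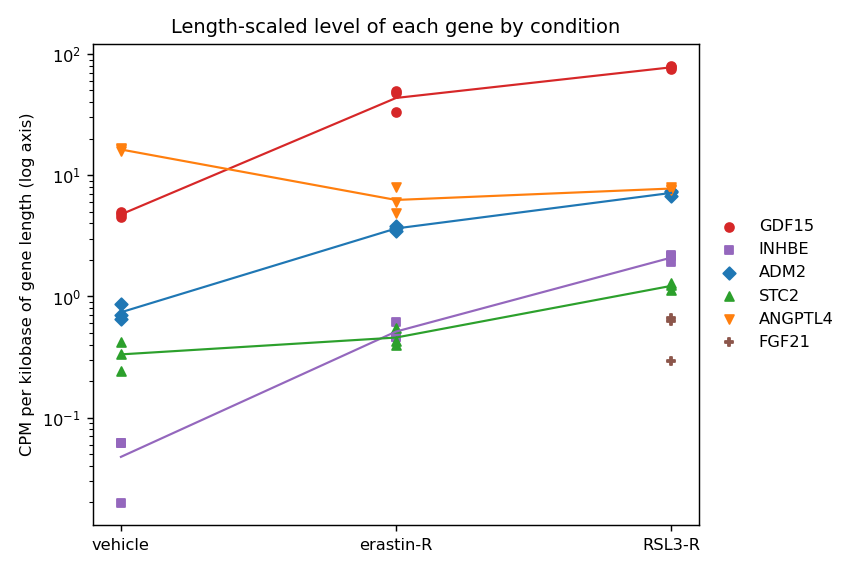
CPM per kilobase of exon (log axis) of the 6 genes in the 3 groups, with points for libraries and lines through the group means. GDF15 passes ANGPTL4 between vehicle (4.75 and 16.3) and erastin-R cells (43.4 and 6.25). Libraries at 0 counts, those of FGF21 in vehicle and erastin-R cells, cannot be drawn on this axis.

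The ratio of 2 genes within 1 library does not depend on how libraries were scaled. GDF15 over ANGPTL4, each per kilobase, was 0.277 to 0.299 in vehicle, 6.02 to 8.25 in erastin-R and 9.80 to 10.2 in RSL3-R libraries. ADM2 over ADM, the gene of the related peptide adrenomedullin, was 0.0330 to 0.0413, 0.200 to 0.229 and 0.586 to 0.655. The 3 groups did not overlap in either ratio. The members were chosen from the same values, so this separation is a description only. INHBE over INHBB, the gene of the activin B subunit, was 0.00194 to 0.00660 in vehicle cells, where it rests on 1 to 3 INHBE counts, and 0.135 to 0.203 and 0.151 to 0.182 in erastin-R and RSL3-R cells, which overlapped. STC1 stayed far above STC2, at 44.6 to 78.6 times its length-scaled level in vehicle, 44.4 to 73.4 in erastin-R and 32.3 to 37.8 in RSL3-R libraries.

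**Figure D4:**
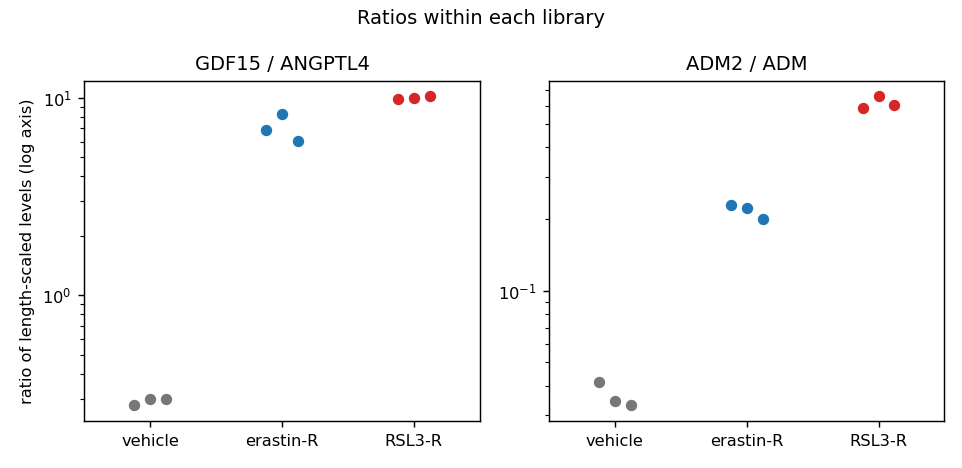
Ratios of length-scaled levels within each library (log axes) for GDF15 over ANGPTL4 and for ADM2 over ADM, 3 libraries a group. Both ratios are lowest in vehicle libraries, at most 0.299 and 0.0413, and highest in RSL3-R libraries, at least 9.80 and 0.586.

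The pattern of each member over the 9 libraries was set beside those of 12965 other protein-coding genes as the root mean square difference in log2 CPM after centring each gene on its vehicle mean, where 0 is the same pattern. GDF15 was nearest to ASNS (0.40), asparagine synthetase, then to CHAC1 (0.57), a glutathione-degrading enzyme, and CTH (0.75), an enzyme of transsulfuration. Mean changes from vehicle in erastin-R and RSL3-R cells were 3.15 and 4.01 for GDF15. For ASNS they were 3.70 and 3.69, without the step between the treated groups. For CHAC1 they were 2.21 and 3.81, and for CTH 2.61 and 2.87. The median distance over all genes was 2.98 for GDF15, 2.90 for INHBE, 2.29 for ADM2, 1.16 for STC2 and 1.04 for ANGPTL4. It followed the size of each member's own change, for which members were chosen, so closeness is not read from it. INHBE was nearest to CHAC1 (0.46), the cytokine gene IL1A (0.64) and the stress-induced gene NUPR1 (0.79), and ADM2 to CHAC1, CTH and TRIB3 (all 0.37). CHAC1 was thus among the 3 nearest genes of 3 members. The distances used a prior count of 3, which draws in the changes of INHBE, centred on 7 vehicle counts. With a prior count of 0.25, added after the data were seen, 1 of the 3 nearest genes of INHBE was shared with those above, 2 each for GDF15 and ADM2, and 3 each for STC2 and ANGPTL4. For STC2 the nearest were ABI3BP (0.22), PSAT1 (0.24), an enzyme of serine synthesis, and WARS (0.24), tryptophanyl-tRNA synthetase. ANGPTL4 was nearest to TMEM163 (0.10), TCTA (0.14) and LANCL2 (0.16), all lower in both treated groups. Among the members, GDF15 was 0.54 from INHBE, 0.72 from ADM2 and 3.93 from ANGPTL4. The order of the first 2 depended on the prior count, since with 0.25 GDF15 was 0.94 from INHBE and 0.69 from ADM2. The 9 points of each pattern fall into 3 groups and share their libraries, so these distances are a description only.

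Other genes around these hormones were taken from 3 lists, of relatives, of receptors and partners, and of upstream factors. They were tested by edgeR's quasi-likelihood test with Benjamini-Hochberg adjustment over all genes, and called at an adjusted p under 0.05 with a difference of 1 or more on the log2 scale. These calls covered 13.4%, 10.1% and 10.3% of all genes tested in erastin-R against vehicle, RSL3-R against vehicle and RSL3-R against erastin-R cells. By direction, 6.7% were called higher and 6.66% lower in erastin-R against vehicle cells, 6.02% and 4.08% in RSL3-R against vehicle cells, and 6.86% and 3.48% in RSL3-R against erastin-R cells. The median log2 fold change of all genes was between -0.02 and 0.01 in the 3 comparisons. The lists were chosen with earlier results of these data known, so calls and p-values of their genes are given as a description.

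Relatives of the hormones in the activin, calcitonin, stanniocalcin, angiopoietin-like and FGF families were mostly too low to test, with 6 of 20 passing the filter. Against vehicle, 0 of the 6 were called higher and 2 lower in erastin-R cells (median log2 fold change -0.40), and 1 higher and 0 lower in RSL3-R cells (median 0.31). INHBB was at 31.9 (vehicle), 10.2 (erastin-R) and 39.6 CPM (RSL3-R), or -1.64 on the log2 scale (SE 0.09, adjusted p = 7.98e-09) for erastin-R against vehicle and 1.95 (adjusted p = 2.95e-09) for RSL3-R against erastin-R. ANGPTL2, a secreted factor known from inflammation, showed the same order at 21.9, 7.02 and 35.9 CPM. For ANGPTL2 these comparisons gave log2 fold changes of -1.63 (adjusted p = 9.97e-08) and 2.35 (adjusted p = 5.16e-09). STC1 rose in RSL3-R cells, from 80.0 to 173.8 CPM (log2 fold change 1.12, adjusted p = 9.04e-08). ADM was at -0.81 on the same scale in RSL3-R against vehicle cells, under the minimum for a call, while its relative ADM2 was at 3.27.

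Of the receptors and partners 19 of 29 could be tested. In erastin-R cells 2 were called higher and 0 lower (median log2 fold change 0.35), and in RSL3-R cells 2 were called higher and 1 lower (median 0.22). The 3 called in RSL3-R cells became 1 without vehicle replicate 1 or without RSL3-R replicate 2, and ranged from 1 to 4 when each library was left out in turn. For GDF15, GFRAL had 0 counts in every library and its co-receptor RET at most 2. For FGF21, the co-receptor KLB had 1 to 7 counts per library, and FGFR3, an FGF receptor, fell in RSL3-R against vehicle cells by 1.76 on the log2 scale (adjusted p = 2.86e-04). FGFR1, at 133 to 162 CPM in all libraries, had log2 fold changes of 0.06 and -0.07. For ADM2, the receptor CALCRL had 0 to 10 counts per library, and of its accessory proteins RAMP2 and RAMP3 had 0 counts while RAMP1 was at 3.09, 2.42 and 2.15 CPM.

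For INHBE, the activin receptor ACVR1C rose from 0.470 CPM to 1.34 with erastin-R (log2 fold change 1.51, adjusted p = 0.00335) and 1.05 with RSL3-R (1.15, adjusted p = 0.0224), on 5 to 25 counts per library. ACVR1C was not called in RSL3-R cells under 5 of 15 alternatives, with an adjusted p between 0.0181 and 0.0972 over all of them. ACVR2B, a type II activin receptor, rose in erastin-R cells (1.18, adjusted p = 1.04e-06) and was at 0.35 on that scale for RSL3-R. The activin-binding proteins FST and FSTL3 stood at log2 fold changes of 0.64 and 0.69 for erastin-R and 0.32 and 0.23 for RSL3-R, without a call. The proprotein convertase PCSK6 was called higher in RSL3-R cells (1.45, adjusted p = 0.0143), a call lost without vehicle replicate 1 (adjusted p = 0.0672) and also without RSL3-R replicate 2. FURIN, a convertase that cleaves many TGF-beta family precursors, had 0.88 and 0.82, also under the minimum for a call. For ANGPTL4, its target lipoprotein lipase, LPL, had log2 fold changes of 0.58 and -0.01 against vehicle.

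All 22 upstream factors passed the filter, and 8 were called higher and 0 lower in each comparison with vehicle, with median log2 fold changes of 0.84 (erastin-R) and 0.81 (RSL3-R). The factors called in both were DDIT3, which encodes CHOP (1.69 and 2.15), TRIB3, a pseudokinase induced by ATF4 (1.76 and 2.84), ATF3 (1.77 and 1.78), EGR1 (1.55 and 1.82) and ERN1, which encodes the endoplasmic reticulum stress sensor IRE1 (1.48 and 1.85). CEBPB (1.80), HIF1A (1.26) and PPARA (1.17) were called in erastin-R cells but not in RSL3-R cells (0.91, 0.51 and 0.90). These differences were tested in the comparison of RSL3-R with erastin-R cells, at log2 fold changes of -0.89, -0.75 and -0.27 (adjusted p = 1.41e-04, 3.21e-06 and 0.00778), each under the minimum for a call. CEBPG (1.61), PPP1R15A (1.19) and XBP1 (1.18) were called in RSL3-R cells, and their values in erastin-R cells were 0.56, 0.81 and 0.93. In RSL3-R against erastin-R cells CEBPG was called at 1.05. There PPP1R15A was at 0.38 (adjusted p = 0.00343) and XBP1 at 0.25 (adjusted p = 0.00762), each under the minimum for a call. ATF4 itself had log2 fold changes of 0.30 (adjusted p = 3.40e-04) and 0.68 (adjusted p = 2.19e-07), under the minimum for a call. All DDIT3 libraries of erastin-R (21.6 to 27.5 CPM) lay between those of vehicle (6.48 to 8.11 CPM) and RSL3-R cells (31.7 to 34.9 CPM), and 27.2% of the exon bases of DDIT3 lie opposite those of MARS, which had 2520 to 7447 counts.

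Between RSL3-R and erastin-R cells, CEBPG (1.05), TRIB3 (1.08) and ATF5 (1.05) were the upstream factors called higher, with 0 called lower. Each of these calls was lost without 1 erastin-R library, where the log2 fold change was 0.92 for ATF5 and 0.96 for TRIB3 without replicate 1 and 0.98 for CEBPG without replicate 3. Of the exon bases of ATF5, 21.2% lie opposite those of NUP62, which had 1158 to 2202 counts. Among the other lists, 2 relatives (INHBB and ANGPTL2) were called higher, and FGFR3 was called lower (log2 fold change -1.37, adjusted p = 0.00252).

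**Figure D5:**
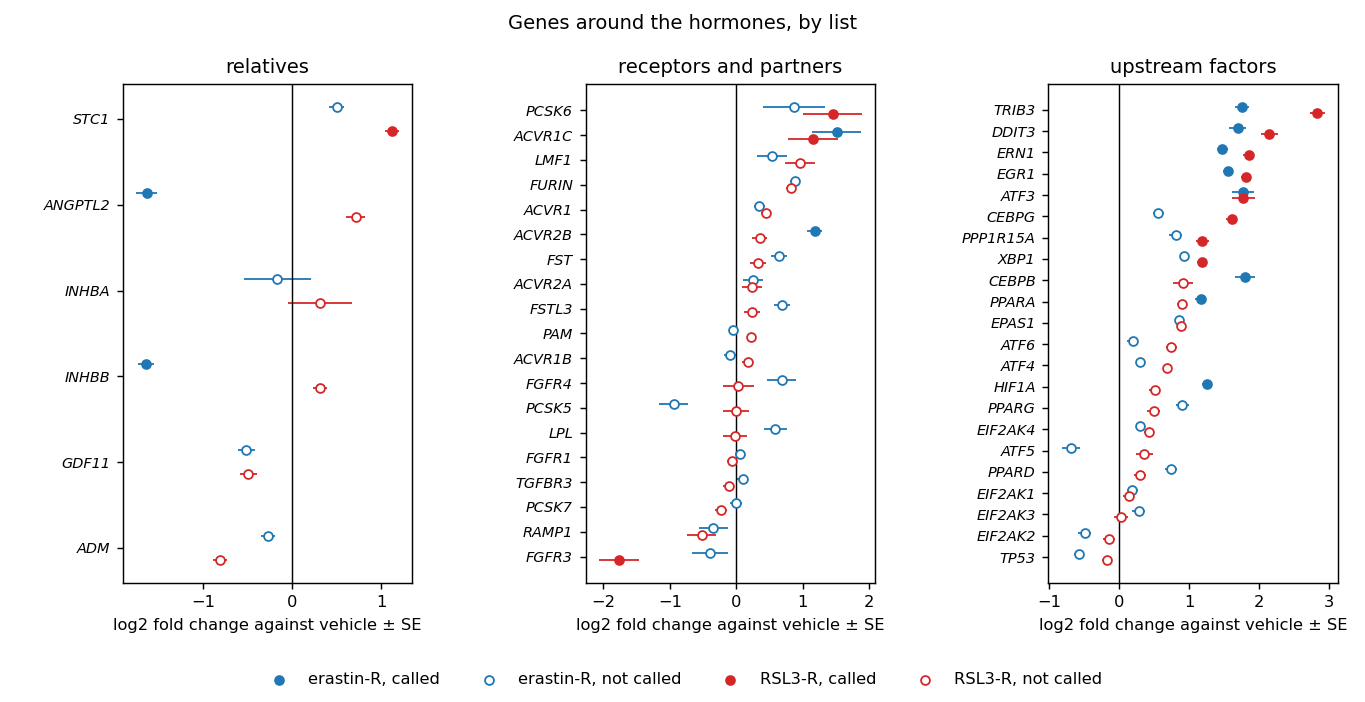
Log2 fold changes against vehicle ± SE of the tested genes of the 3 lists, in blue for erastin-R and red for RSL3-R cells, filled where called. INHBB and ANGPTL2 lie at -1.64 and -1.63 in erastin-R cells and right of 0 in RSL3-R cells, and TRIB3 reaches 2.84 in RSL3-R cells.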

How the data were processed

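RNA of 9 libraries of MDA-MB-231 cells was compared, 3 per group, with groups and replicate numbers taken from the sample labels. The authors deposited, for each library, whole-number counts per gene without normalization and FPKM values. The deposited FPKM values were not used. The study's methods state that uniquely mapped exonic reads were used. HISAT2 2.0.5 and featureCounts 1.5.0-p3 are named in the submitters' processing notes. Whether counting used strand is not given in the sources used here, so reads of a gene and of an antisense partner cannot be told apart. For the 6 members, gene identifiers and coordinates matched GENCODE on GRCh38. The coordinates of other genes were not compared.

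Counts were normalized (TMM) and fitted in 1 model of all 9 libraries with edgeR 4.0.16 in R 4.3.3 (filterByExpr, quasi-likelihood test, Benjamini-Hochberg adjustment over 16188 genes). Calls required an adjusted p under 0.05 and a log2 difference of 1 or more in either direction, the threshold of the study's legend. The study's methods name Cufflinks, which cannot be run on counts. CPM values used TMM library sizes, standard errors came from the log2 fold change and its F statistic, and intervals for sums of counts were exact. The floor was 3 counts per library. The biological coefficient of variation was 8.56%. Distances between patterns used log2 CPM with a prior count of 3. Promoters were those of RefSeq.

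The members and lists were chosen with earlier results of these data known, and the members got no p-value. The genes named are the 6 members, every list gene called in a comparison, list genes named for their role (receptors and partners of a member, ATF4 and DDIT3), and the 3 protein-coding genes nearest to each member. INHBB and ANGPTL2 are also named for their relation to a member, and VIM, CD44, ESR1, PGR, CDH1 and EPCAM as markers of the line. Alternatives were no filter, DESeq2 1.42.0, upper-quartile scaling, quantile normalization with limma 3.58.1, only the 2 groups compared, a replicate block, no minimum fold change, and leaving out each library. The quantile normalization was applied to log2 CPM with a prior count of 3.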

Additional observations from a re-analysis of the deposited data

Results flagged for a closer look

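3 of the 47 list genes tested (6.38%) stood on opposite sides of vehicle in the 2 treated groups, below every vehicle library in erastin-R cells and above every vehicle library in RSL3-R cells. Of all genes tested, 6.33% stood on opposite sides in either order and 3.48% in this order. The log2 difference of RSL3-R from erastin-R cells was 2.35 for ANGPTL2, 1.95 for INHBB and 1.05 for ATF5. The genes were picked for this pattern, so these differences are given as a description. Relative to vehicle, none of the 3 was called in RSL3-R cells, at log2 fold changes of 0.71 for ANGPTL2, 0.31 for INHBB and 0.36 for ATF5, and ATF5 was not called in erastin-R cells either (-0.69). Without erastin-R replicate 1, the difference for ATF5 was 0.92, under the minimum fold change.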

How the results depend on the processing

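The log2 fold changes of the 5 members fitted kept their sign in all 225 values from the alternatives, and 213 of these moved by less than 1 SD between replicates. Of the other 12, the largest shift was 1.24, for INHBE in RSL3-R against vehicle cells after quantile normalization. That alternative also used a prior count of 3, which draws in changes that rest on few counts. INHBE was at 5.39 as fitted, 4.33 with this prior count and no quantile step, and 4.16 with both. Of 854 values for called list genes, 10 lost the call and 2 gained one. The 2 gained were XBP1 in erastin-R against vehicle cells (1.01) and CEBPB in RSL3-R against erastin-R cells (-1.09), both without erastin-R replicate 1. With no minimum fold change, 8735 genes and 35 list genes passed the adjusted p in erastin-R against vehicle cells, 7879 and 32 in RSL3-R against vehicle cells, and 7969 and 32 in RSL3-R against erastin-R cells, compared with 2162 and 12, 1635 and 12, and 1674 and 6 called with it. Leaving out 1 library gave 2043 to 2573, 1581 to 1779 and 1514 to 2143 genes, and 12 to 13, 10 to 13 and 5 to 8 list genes. Quantile normalization gave 730 genes higher and 717 lower in RSL3-R against vehicle cells, where the fit reported gave 975 and 660. In RSL3-R against erastin-R cells it gave 822 and 644, and upper-quartile scaling 1321 and 406, against 1111 and 563 as reported.

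With the replicate block, 2153, 1614 and 1652 genes and 12, 12 and 6 list genes were called. Libraries that share a number deviated together no more than others. The mean correlation was -0.00495 over 9 pairs with the same number (-0.0904 to 0.0518) and 0.00256 over 18 pairs with different numbers. With 3 libraries a group, these values cannot decide whether libraries were paired.

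With a prior count of 1 in place of 3, at least 2 of the 3 nearest genes of each member were shared. The depth limits what can be said of INHBE in vehicle cells and of FGF21 in vehicle and erastin-R cells, which were at or under 3 counts per library.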
